A study of Mus musculus with 4 samples.

Results

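The cytosolic ribosomal protein genes encode the protein part of the ribosome that translates nuclear mRNAs. Members were all rows named Rpsa, or named Rps, Rpl or Rplp with a number and at most one of the endings a, x, y or l1, whose mean over the samples was at least 1 FPKM. FPKM is a level per length of transcript and per library, so levels of different genes can be set side by side. This does not hold for members whose reads also fit a near-identical copy, described below, since their own rows are uncertain. Of 28074 gene symbols in the table, 78 had such a name, and 76 passed the minimum, 29 of the small (40S) and 47 of the large (60S) subunit. Rps12 and Rps27 had the name but were listed at 0 in every sample. One of the 76, Rps12l1, is annotated in GENCODE release M21 as a processed pseudogene, although the naming rule was meant to leave pseudogenes out.

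RNA was sequenced from 4 samples of leukaemic splenocytes, spleen cells from 2 mice with acute myeloid leukaemia, numbered 4050 and 4182. Both mice carried Dnmt3a fl/fl, Flt3 ITD/ITD and Mx1Cre, an interferon-inducible Cre of the blood system that also acts in other tissues. The protocols also call the leukaemia Dnmt3a+/-, so the Dnmt3a dose in the leukaemic cells is not settled. Red cells had been lysed and the cells frozen. After thawing and 24 hours in 20% serum with SCF at 60 ng/ml and IL6 and IL3 at 20 ng/ml each, cells of each mouse were divided. One culture received 10 µg/ml R848 (resiquimod, an agonist of Toll-like receptor 7) and the other an equal volume of vehicle for 3 days, and the vehicle culture is called control here. Each group thus had 2 samples, and each mouse gave 1 sample to each group. No mouse without leukaemia and no cells without cytokines were compared. The series asks which genes and pathways R848 alters in these leukaemia cells.

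A ribosome holds one copy of nearly every ribosomal protein, and unpaired proteins are degraded, so cells keep the genes of both subunits in step. In mammals this is done largely at translation: the mRNAs begin with a C followed by pyrimidines, the 5′ terminal oligopyrimidine (TOP) tract, through which growth signals acting via mTOR switch them between translated and stored forms. MYC raises transcription of many of these genes, and loss of a single allele of some, such as Rps19 or Rpl5, causes anaemia and marrow failure in people. Each gene also has many processed pseudogenes, intronless copies of its mRNA elsewhere in the genome.

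The TOP tract is shown first because it is the feature that the family is known for. Each line runs from 30 bases before to 20 bases from the annotated transcription start (RefSeq, GRCm38.p6), with the unbroken pyrimidine run at the first transcribed base in capitals. The first lines are of Rps6, Rps10 and Rps18 (small subunit, minus strand, chr4:86857348-86857397, chr17:27635225-27635274 and chr17:33955646-33955695). Next are Rpl15 and Rpl35 (large subunit, minus strand, chr14:18270967-18271016 and chr2:39005112-39005161) and Rpl38 (plus strand, chr11:114668550-114668599). The last, without such a run, are the paralog genes Rpl22l1 (plus strand, chr3:28805478-28805527) and Rpl7l1 (minus strand, chr17:46782637-46782686). The lines with a run all come from the 12 members with a TOP tract at an annotated start. Lack of a tract there is not particular to the paralogs: 43 members had none, Rps2, Rps19 and Rpl5 among them.
Rps6: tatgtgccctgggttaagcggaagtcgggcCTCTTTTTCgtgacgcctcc
Rps10: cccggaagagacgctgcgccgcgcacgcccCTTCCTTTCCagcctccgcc
Rps18: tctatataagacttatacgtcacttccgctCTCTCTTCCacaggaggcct
Rpl15: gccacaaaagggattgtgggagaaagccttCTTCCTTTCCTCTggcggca
Rpl35: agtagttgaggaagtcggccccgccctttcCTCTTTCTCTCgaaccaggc
Rpl38: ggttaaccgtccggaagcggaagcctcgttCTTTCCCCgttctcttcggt
Rpl22l1: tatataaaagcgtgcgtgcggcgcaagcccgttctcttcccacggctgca
Rpl7l1: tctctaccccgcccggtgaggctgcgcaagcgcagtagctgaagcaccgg

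RefSeq promoters were matched for 55 of the 76 members, with 65 annotated starts. A C at the first base followed by at least 4 pyrimidines stood at 12 of the 65 starts (18.46%) and at 823 of all 32851 starts (2.505%). In the Rpl22l1 window a pyrimidine run begins at the base after the annotated start, so the count depends on where a start is placed. The letters CCGGAAG, on either strand from 100 bases before to 50 after the start, stood at 17 member starts (26.15%) and at 6.59% of all starts. These are matches of letters and not sites. The 12 members with a TOP tract at an annotated start had a median log2 difference between R848 and control of -0.24, and the 43 without one had -0.22.

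Some facts about the samples come before the differences. Sequencing depth is unknown, since the table held no read counts. Among members, the control of mouse 4182 stood apart: it was the highest of the 4 samples in 70 of 76. Over the 76 it exceeded the control of mouse 4050 by a median of 0.19 on the log2 scale, while that median over all 12612 genes tested was -0.0035. The R848 samples of the same mice differed by a median of 0.0022 over members. The deposited scale also shifted: the median difference over all tested genes was 0.0037 in mouse 4050 and -0.16 in mouse 4182. Myeloid markers were present in all samples (Mpo between 1052 and 1533 FPKM, Lyz2 between 3993 and 6174 FPKM), but the leucocyte gene Ptprc stood at 1.27 to 2.69 FPKM and Flt3 at 0.094 to 1.93 FPKM.

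Ribosomal protein mRNAs were a large part of the measured RNA and were lower with R848 in both mice. The 76 genes summed to 12.9% of all FPKM in the control of mouse 4050 and 15.0% in that of mouse 4182, and to 11.7% and 11.8% in the R848 samples of the same mice. Both R848 shares lay below both control shares. The ratio of the group means was 0.841, being 0.905 in mouse 4050 and 0.786 in mouse 4182. In a bulk sample, fewer cells of a type and less RNA per cell cannot be told apart.

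**Figure D1:**
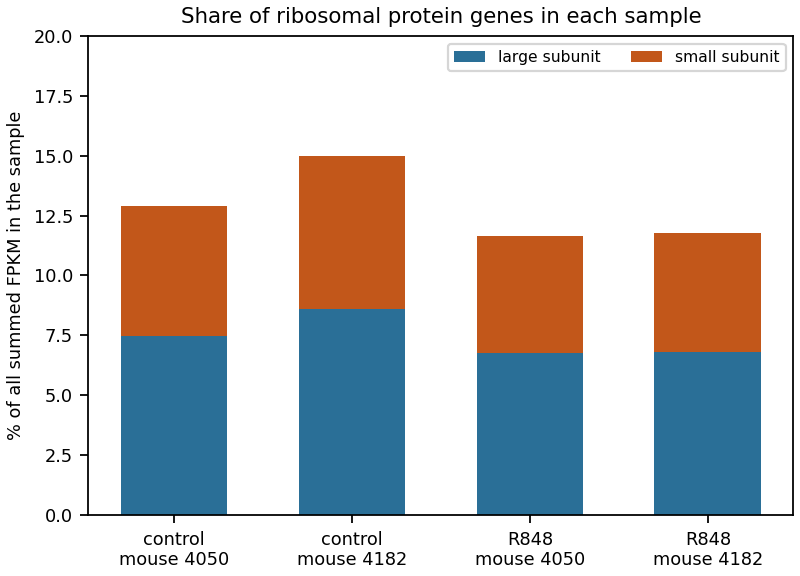
Bars show the summed FPKM of the 29 small-subunit and 47 large-subunit genes as a percentage of all FPKM, for each of the 4 samples. The control of mouse 4182 reached 15.0%, and the R848 samples stood at 11.7% and 11.8%.

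No single member passed the test. With limma on log2(FPKM + 1), 0 of 76 were called at a Benjamini-Hochberg adjusted p under 0.05, the smallest adjusted p being 0.422 for Rpl12. Of all tested genes 1.85% were called, and 0.381% were called lower. At an unadjusted p under 0.05, 1 member (Rpl12) was lower and none was higher, against 6.33% of all genes that were lower. With the mouse as a block, again 0 members were called, against 1.9% of all genes called lower. At an unadjusted p under 0.05 in that fit 8 were lower, against 8.71% of all genes, among them Rps6, Rps15, Rps16, Rpl10a, Rpl12 and Rpl36. The counts at these thresholds were thus near or under the background. With 2 samples a group the median standard error of a member's log2 difference was 0.166, and 0.167 with the block.

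On the deposited scale the direction was shared by nearly all members, and after quantile normalization by fewer (44 of 76). As deposited, the R848 value was below the control value in both mice for 74 of 76 genes (97.4%), against 38.8% of all tested genes. Both R848 samples lay below both controls for 61 of 76 (80.3%), against 28.8% of all tested genes, and both lay above for none. The median log2 difference over members was -0.23, with -0.13 in mouse 4050 and -0.34 in mouse 4182, against -0.078 over all tested genes. Differences were alike in size: 70 of 76 lay between -0.4 and -0.1, and 1 lay below -0.5. On the linear scale the median member was 14.8% lower. The difference was larger in mouse 4182 for 67 members, and without the control of that mouse the median was -0.15.

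**Figure D2:**
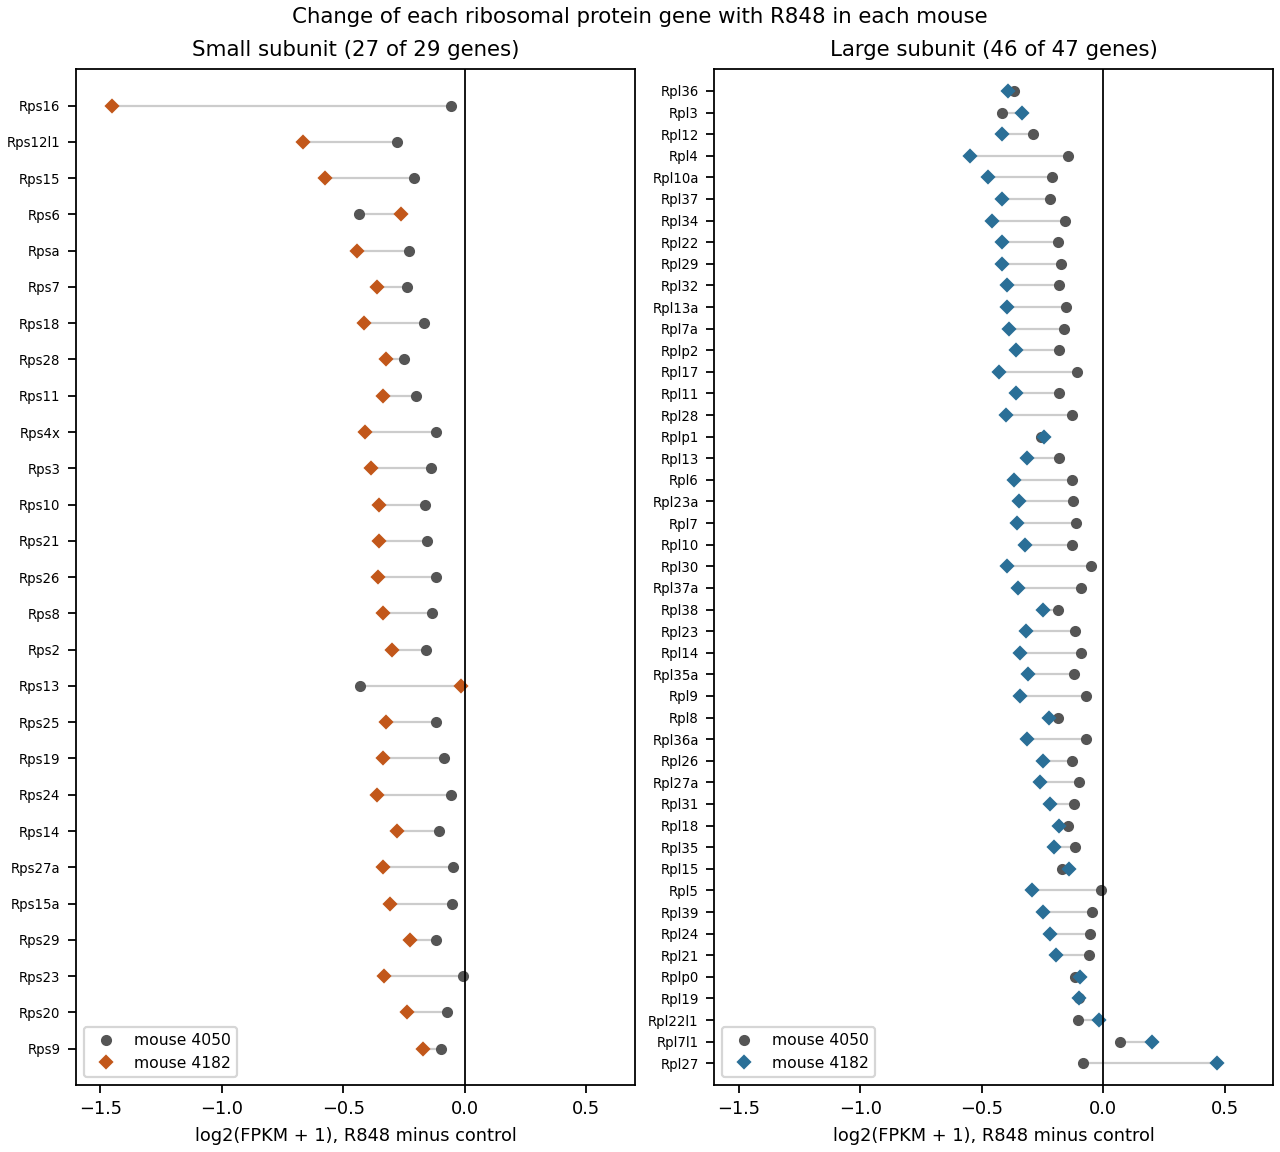
Each row is one of the 73 members shown; the circle gives its log2(FPKM + 1) difference, R848 minus control, in mouse 4050 and the diamond that in mouse 4182. On this deposited scale all but Rpl27 and Rpl7l1 lie left of 0 in both mice (44 of all 76 members do so after quantile normalization), and Rps16 has the widest gap between mice.

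The size of this shared difference depended on how samples were scaled. After quantile normalization the member median was -0.077 against -0.036 over all genes. In that scale 44 of 76 members, against 36.1% of all genes, were lower in both mice, and 27, against 26.3%, had both R848 values below both controls. With each sample's median log ratio over genes set to 0, the member median was -0.16 against -0.0038 over all genes. There 69 members, against 31.7% of all genes, were lower in both mice and 29, against 22.2%, did not overlap. With the most abundant and the immunoglobulin rows left out before rescaling, the member median was -0.18 against -0.033 over all genes. There 70 members, against 34.7% of all genes, were lower in both mice and 43, against 25.5%, did not overlap.

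Both subunits were lower by nearly the same amount. The median log2 difference was -0.24 for the 29 small-subunit genes and -0.22 for the 47 large-subunit genes, -0.013 apart. That gap was -0.011 in mouse 4050 and -0.0030 in mouse 4182. It was 0.0059 without the control of mouse 4182 and -0.053 without that of mouse 4050, so neither its sign nor its size was stable. On the deposited scale 29 of the small-subunit genes were lower in both mice and 23 did not overlap. Of the large-subunit genes the counts were 45 and 38, against 38.8% and 28.8% of all tested genes. After quantile normalization 15 small-subunit and 29 large-subunit genes were lower in both mice, against 36.1% of all genes.

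The 76 mitochondrial ribosomal protein genes (Mrps and Mrpl), which build the separate ribosome of mitochondria, did not share the direction. Their median log2 difference was 0.089 as deposited and 0.093 after quantile normalization, and it was positive under every scaling tried. As deposited, the median was 0.0054 in mouse 4050, where 37 of the 76 were lower, and 0.15 in mouse 4182. In both mice 12 were lower and 32 higher, against 4896 lower and 2787 higher of all 12612 tested genes. Limma called 0 of them; 2 stood higher and 0 lower with an unadjusted p below 0.05, and the counts were the same with the block. The 1189 other genes averaging 100 FPKM or more, a level most members reach, were not matched to members in level. Their median level was 172 to 194 FPKM per sample, against 1583 to 2040 FPKM for members. Their median log2 difference was 0.0032, with 30.4% lower in both mice and 22.8% not overlapping. These values describe the lists and were not tested against each other.

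**Figure D3:**
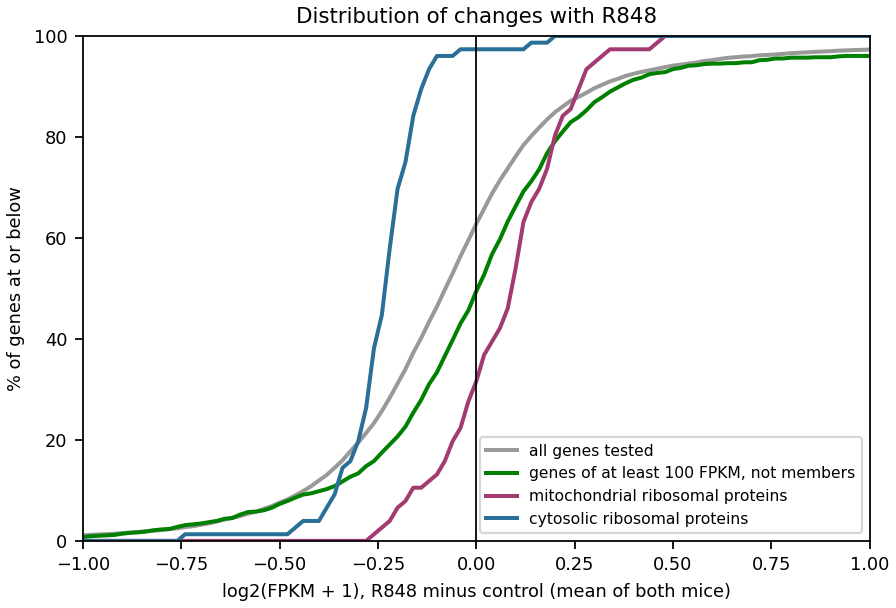
Cumulative percentage of genes at or below each log2(FPKM + 1) difference (R848 minus control, mean of both mice) for the 76 cytosolic and 76 mitochondrial ribosomal protein genes, 1189 other genes of at least 100 FPKM and all 12612 tested genes. The cytosolic curve rises steeply around its median of -0.23, left of the others.

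Below, whether the groups of a single gene overlapped is given on the deposited scale. There both R848 values lay below both controls for 28.8% of all tested genes. After quantile normalization this held for 27 of 76 members (26.3% of all genes), and with median log ratio scaling for 29 (22.2%). Among the small-subunit genes with the highest levels were Rps18, Rps24 and Rps2. Rps18, in the head of the 40S subunit, had 3033 and 3710 FPKM in the controls of mice 4050 and 4182 and 2697 and 2784 FPKM with R848. Rps24 had 2927 and 3637 FPKM in controls and 2818 and 2830 FPKM with R848. Both R848 values of each lay below both controls, and the log2 differences were -0.29 (SE 0.18, limma adjusted p = 0.612) and -0.21 (SE 0.18, limma adjusted p = 0.746).

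Rps2, at the entry of the mRNA channel, had 3203 and 3276 FPKM in controls and 2866 and 2664 FPKM with R848. Its controls were close to each other, and it did not overlap between groups (log2 -0.23). Rps9, which also lines the mRNA entry, had 2579 and 2828 FPKM in controls and 2409 and 2507 FPKM with R848, the smallest difference of the subunit (log2 -0.14). After quantile normalization the sign turned for Rps2 (0.0077) and Rps9 (0.067).

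The small-subunit genes with the largest differences included Rps16, Rps12l1 and Rps15. Rps16, which touches the tRNA in the peptidyl site, had 87.4 and 208 FPKM in controls and 84.1 and 75.3 FPKM with R848. The control of mouse 4182 alone set its log2 difference of -0.75 (SE 0.36, limma adjusted p = 0.497): the value was -0.055 in mouse 4050 and -1.45 in mouse 4182. Leaving out the control of mouse 4050 left the high control alone and made Rps16 the only member called in any left-out fit, at -1.37. Rps12l1 had 6.35 and 7.40 FPKM in controls and 5.05 and 4.30 FPKM with R848, at the low end of the scale. Rps15, at the head of the subunit, had 1904 and 2461 FPKM in controls and 1648 and 1650 FPKM with R848 (log2 -0.39, SE 0.18). Rps15 did not overlap between groups.

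Rps6, the protein that S6 kinase phosphorylates below mTOR, had 137 and 193 FPKM in controls and 101 and 161 FPKM with R848. It was lower within each mouse, but the R848 sample of mouse 4182 exceeded the control of mouse 4050 (log2 -0.35, SE 0.26, limma adjusted p = 0.693). With the mouse as a block the SE of Rps6 was 0.15 (limma adjusted p = 0.271). Rpsa, the laminin receptor protein of the 40S subunit, had 2005 and 2331 FPKM in controls and 1712 in both R848 samples (log2 -0.34, SE 0.17, limma adjusted p = 0.516). Rps19, the gene most often mutated in Diamond-Blackfan anaemia, had 2641 and 2939 FPKM in controls and 2486 and 2324 FPKM with R848 (log2 -0.21). Rpsa and Rps19 did not overlap between groups.

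Rps27a, made as a fusion to ubiquitin, had 1836 and 2040 FPKM in controls and 1775 and 1616 FPKM with R848 (log2 -0.19). Rps4x, the X-linked member of the Rps4 pair, had 2482 and 2860 FPKM in controls and 2285 and 2152 FPKM with R848 (log2 -0.26). Rps13 had 67.6 and 74.4 FPKM in controls and 49.9 and 73.6 FPKM with R848, so mouse 4050 alone differed visibly (log2 -0.22). Rps20, Rps23 and Rps29 stood at the small end, with log2 differences of -0.15, -0.17 and -0.17. For Rps29 the R848 sample of mouse 4182 (1557 FPKM) exceeded the control of mouse 4050 (1314 FPKM). After quantile normalization Rps27a was at 0.0027 and Rps20 at 0.049. The 11 small-subunit genes not named for their values had means of 1003 to 2535 FPKM and log2 differences of -0.30 to -0.18. On the deposited scale all 11 were lower in both mice, against 38.8% of all genes.

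Large-subunit levels were led by Rpl13a, Rplp1, Rpl32 and Rplp0. Rpl13a, whose protein also takes part in translational silencing of inflammatory mRNAs after its release from the ribosome, was the highest member. It had 4360 and 5051 FPKM in controls and 3922 and 3835 FPKM with R848 (log2 -0.27, SE 0.17, limma adjusted p = 0.626). Rpl32 had 3623 and 4347 FPKM in controls and 3194 and 3302 FPKM with R848 (log2 -0.29). Both R848 values lay below both controls for each gene.

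The stalk, which recruits the GTPases of translation, is built from Rplp0 and paired Rplp1 and Rplp2. Rplp0 had 2989 and 3153 FPKM in controls and 2761 and 2952 FPKM with R848 (log2 -0.10). Rplp1 had 3677 and 4232 FPKM in controls and 3082 and 3572 FPKM with R848 (log2 -0.25). Rplp2 had 2220 and 2511 FPKM in controls and 1955 and 1959 FPKM with R848 (log2 -0.27). On the deposited scale none of the stalk genes overlapped between groups. Their standard errors (0.16, 0.18 and 0.16) were about as large as the gap between them. After quantile normalization Rplp0 was at 0.089.

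Rpl5 and Rpl11, which bind 5S RNA and, when free, MDM2, the inhibitor of p53, had their own rows at different levels. Both have a near-identical copy, Gm15500 (104 FPKM) for Rpl5 and Gm10288 (777 FPKM) for Rpl11, so these levels are uncertain. Rpl5 had 103 and 102 FPKM in controls and 102 and 83.3 FPKM with R848, so only mouse 4182 differed visibly. Its log2 difference was -0.15, and 0.085 with copies summed. Rpl11 had 1001 and 1120 FPKM in controls and 883 and 875 FPKM with R848 (log2 -0.27). Rpl10, among the last proteins loaded in the cytoplasm and X-linked, had 1087 and 1126 FPKM in controls and 994 and 901 FPKM with R848 (log2 -0.23). Rpl11 and Rpl10 did not overlap between groups.

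Among the largest large-subunit differences were those of Rpl36, Rpl3 and Rpl12. Rpl36 had 1814 and 2205 FPKM in controls and 1408 and 1682 FPKM with R848, with like differences in both mice (-0.37 and -0.39). Rpl12, a protein at the base of the stalk, had 124 and 129 FPKM in controls and 101 and 96.6 FPKM with R848 (log2 -0.35, SE 0.15, limma adjusted p = 0.422). The samples of each group of Rpl12 lay closer together than those of Rpl36 and Rpl3. Rpl3, beside the peptidyl transferase centre, had only 2.67 and 4.61 FPKM in controls and 1.75 and 3.45 FPKM with R848, the lowest member. The groups of Rpl3 overlapped (log2 -0.38, SE 0.32). Its difference was -0.028 without the R848 sample of mouse 4050 and -0.72 without that of mouse 4182.

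Rpl27 and Rpl7l1 were the exceptions to the shared direction. Rpl27 had 97.6 and 66.7 FPKM in controls and 92.2 and 92.7 FPKM with R848, so the mice went opposite ways (-0.082 and 0.47). With its near-identical copies summed Rpl27 was at -0.089. Rpl7l1, an Rpl7 paralog linked to ribosome assembly, had 87.1 and 66.4 FPKM in controls and 91.4 and 76.5 FPKM with R848 (log2 0.14, SE 0.19). Its groups overlapped, and without the control of mouse 4182 the sign turned (-0.058). Rpl7 itself had 1949 and 2039 FPKM in controls and 1801 and 1596 FPKM with R848 (log2 -0.23).

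The other paralog pair showed the same order. Rpl22, a 60S protein that binds RNA and is a tumour suppressor in T-cell leukaemia, had 1381 and 1598 FPKM in controls and 1214 and 1195 FPKM with R848 (log2 -0.30, SE 0.16). Rpl22l1, its paralog, had 514 and 469 FPKM in controls and 479 and 464 FPKM with R848 (log2 -0.059, SE 0.15), and the sign turned with median log ratio scaling (0.015). The difference between the paralogs was not tested. Rpl19 had 2384 and 2563 FPKM in controls and 2226 and 2389 FPKM with R848 (log2 -0.10) and was at 0.086 after quantile normalization. The 28 large-subunit genes not named for their values had means of 119 to 2944 FPKM and log2 differences of -0.35 to -0.13. As deposited, all 28 were lower in both mice and 24 did not overlap, against 38.8% and 28.8% of all genes.

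Levels were even for most members and very low for a few. Of the 76, 55 had a mean of at least 1000 FPKM, 63 of at least 200 FPKM, 11 from 10 to 200 FPKM and 2 under 10 FPKM. As deposited, the 55 high genes were all lower in both mice and 48 did not overlap, against 38.8% and 28.8% of all genes. Over all 76 members, 27 did not overlap after quantile normalization, against 26.3% of all genes. The 13 genes under 200 FPKM had log2 differences of -0.75 to 0.19. Across the 76 members the level and the difference had Pearson's r of 0.085 and Spearman's rho of 0.036, a description over genes that share libraries.

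Most of the low members had a near-identical copy whose row was higher. A row was called a copy when at least 50% of the 31-base words of its GENCODE M21 transcripts were also in a member, 31 being the default word length of kallisto. There were 199 such rows, of which 25 had a mean of at least 10 FPKM. Of these 25, 22 are annotated as pseudogenes, 12 lie wholly inside a member's transcript letter for letter, and 15 stood above their gene. Reads from such stretches fit both places, so gene and copy are uncertain separately.

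Of the copies that differ from their genes, 2 with a single differing base in the aligned coding sequence are shown as 48-base windows (GENCODE M21, mm10; the differing base in capitals), to give an idea of how alike the rows can be. Rpl11 (chr4:136028265-136053428, minus strand) and Gm10288 (chr3:146838811-146839347, minus strand) are shown from coding base 62 to 109 and differ at 1 of 534 aligned coding bases. Rpl35 (chr2:39001580-39005624, minus strand) and Gm2000 (chr1:156366040-156366484, plus strand) are shown from coding base 93 to 140 and differ at 1 of 369.
Rpl11: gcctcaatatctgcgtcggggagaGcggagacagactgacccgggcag
Gm10288: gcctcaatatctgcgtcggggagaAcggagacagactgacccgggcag
Rpl35: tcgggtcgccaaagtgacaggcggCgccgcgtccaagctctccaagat
Gm2000: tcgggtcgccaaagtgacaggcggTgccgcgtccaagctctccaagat

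Gene and copy shared the signal for these pairs: Rpl11 had a mean of 970 FPKM and Gm10288 of 777 FPKM, and Rpl35 had 698 FPKM and Gm2000 1285 FPKM. Of the 12 copies wholly inside a gene's transcript, Gm10443 (1353 FPKM) stood below its gene Rps28 (1492 FPKM), Gm15500 (104 FPKM) was near Rpl5 (97.6 FPKM), and those of the 9 other genes above 0 stood at 3.59 times their gene or more. Rps12 was listed at 0, while Rps12-ps3, identical over all its 494 bases, had 5244 and 5992 FPKM in controls and 4583 and 4465 FPKM with R848, above every member. Rpl31 had 41.9 and 47.4 FPKM in controls and 38.5 and 40.6 FPKM with R848; its mean was 42.1 FPKM and that of Rpl31-ps8 was 3075 FPKM, 73.0 times as much. Means of 119 FPKM for Rpl27a and 113 FPKM for Rpl12 stood beside 3505 FPKM for Gm7536 and 2739 FPKM for Gm10275. Rps6, Rps13, Rps16, Rpl10a, Rpl15 and Rpl27 likewise stood under their highest copies, which had means of 408 to 2895 FPKM. Of the 13 members under 200 FPKM, 10 had a copy above their own row. Rpl3 and Rpl7l1 did not. For Rps12l1 this could not be seen, since each row was linked only to the member sharing most of its words. Of the 31-base words of Rps12l1, 0% were its own, and it was linked to Rps12 as a copy.

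**Figure D4:**
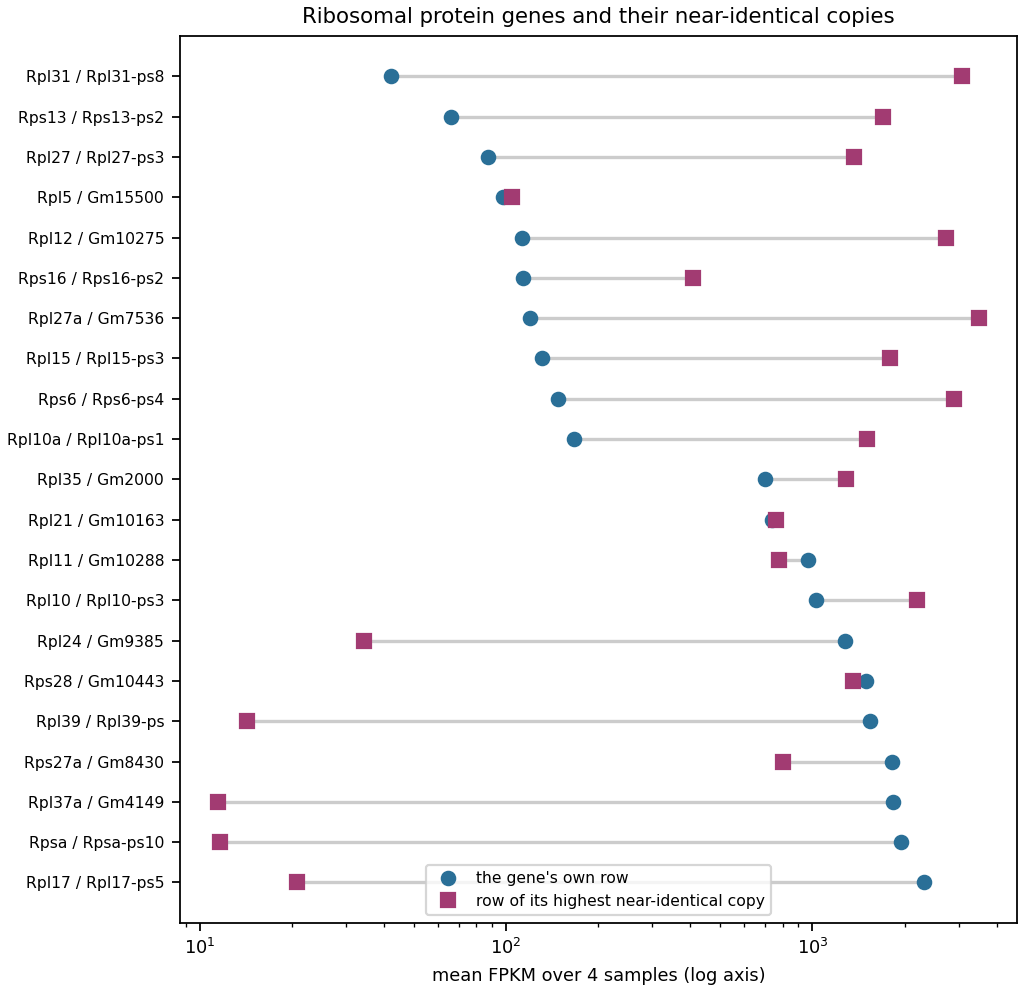
Mean FPKM over 4 samples (log axis) of 21 of the 22 members with a near-identical copy of at least 10 FPKM (circles) and of its highest copy (squares). The 10 low genes at the top have copies above their own row, up to 3505 FPKM for Gm7536.

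With copies summed into their genes, levels were more even. The shared difference was of the same size on the deposited scale, the only one on which copies were summed. Rps12l1, itself a copy of Rps12, was added to that gene, which takes its place in the summed set of 76. The standard deviation of the log2 level over members went from 2.03 to 1.32 in the control of mouse 4050 and to like values in the other samples. The summed genes then held 16.3% and 19.0% of all FPKM in controls and 14.7% and 14.9% with R848. The member median was -0.24, with 73 of 76 lower in both mice and 63 not overlapping, against 38.8% and 28.7% of all genes. Rpl27 with its copies was at -0.089 in place of 0.19, and Rpl5 at 0.085 in place of -0.15. For Rps6 the summed difference was -0.15 and for Rps16 -0.63. The 25 copy rows themselves had a median of -0.27. Of these, 18 were lower in both mice and 15 did not overlap, against 38.8% and 28.8% of all tested genes. Limma called 0 of them, and 1 had an unadjusted p below 0.05.

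The mice differed in Rps7. Rps7, a small-subunit protein that also binds MDM2 (chr12:28630854-28635953, minus strand), had 745 FPKM in the control and 632 FPKM in the R848 sample of mouse 4050. Mouse 4182 had 1481 and 1152 FPKM, so both its samples lay above both of the other mouse. The mouse term of the blocked fit was 0.93 on the log2 scale (limma adjusted p = 0.00857), and Rps7 was the only member called, against 1.36% of all genes. With R848 it was lower in both mice (-0.24 and -0.36). The SE of its R848 difference was 0.38 without the block and 0.16 with it (limma adjusted p = 0.830 and 0.393). Rpl39l, a testis-type paralog outside the rule, stood at 0.58 and 0.21 FPKM in mouse 4050 and at 12.7 and 12.5 FPKM in mouse 4182.

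The remaining ribosomal proteins have names outside the rule. Of 8 such genes tested, limma called 0, and 1 had an unadjusted p below 0.05, on the lower side: Fau, a ubiquitin-like fusion with eS30. Fau had 959 and 1220 FPKM in controls and 809 and 757 FPKM with R848 (log2 -0.47, SE 0.18). Rps3a1 had 2403 and 2757 FPKM in controls and 2200 and 2028 FPKM with R848 (log2 -0.28). The paralogs Rps27l and Rpl36al differed by 0.16 and -0.0062 on the log2 scale, with overlapping values for Rpl36al.

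Other genes around the ribosome were described from lists, in each of which limma called 0 genes without the block. Other TOP mRNAs had a median log2 difference of -0.22 (-0.13 after quantile normalization and -0.15 with median log ratio scaling), with 13 of 25 lower in both mice, and 2 higher. The median was -0.063 in mouse 4050 and -0.34 in mouse 4182. Over all tested genes it was 0.0037 and -0.16, with 38.8% lower in both mice. The TOP mRNAs of this list at an unadjusted p below 0.05 were the elongation factor Eef2 (-0.52) and the initiation factor Eif4b (-0.41). Ribosome assembly factors had a positive median under every scaling tried, 0.087 as deposited over 91 genes, 41 higher and 13 lower in both mice. Of these Noc4l and Pop1 had an unadjusted p below 0.05, both higher. Initiation and elongation factors outside the TOP list had a median of 0.059 over 39 genes, with 0 at an unadjusted p under 0.05. The 36 RNA polymerase I and III genes had -0.063, with 1 lower at that level (Polr3gl). The sign of the polymerase median turned with median log ratio scaling (0.012). The 6 snoRNA host genes tested, of 15 listed, had medians of opposite sign in the mice, 0.16 in mouse 4050 and -0.41 in mouse 4182, with 0 genes at that level.

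Regulators of these mRNAs were described in the same way. The mTOR and TOP control list had a median of -0.14 over 34 genes, against -0.078 over all tested genes. It was -0.070 in mouse 4050 and -0.22 in mouse 4182. In both mice 18 were lower, against 38.8% of all genes, and 5 higher. The median was -0.098 after quantile normalization and -0.067 with median log ratio scaling, against -0.036 and -0.0038 over all genes. Of the 34, 6 had an unadjusted p below 0.05, all lower, against 6.33% of all genes lower. With the mouse as a block 1 of the 34 was called lower, a share near the 1.9% of all genes: Pdcd4, an inhibitor of the initiation helicase, at -0.88 (the limma adjusted p was 0.0205 blocked and 0.130 unblocked). Pdcd4 had 56.1 and 78.4 FPKM in controls and 40.6 and 31.1 FPKM with R848. Eif4ebp1, the repressor of cap-dependent translation that mTOR inactivates, had 147 and 156 FPKM in controls and 107 and 109 FPKM with R848 (log2 -0.49, adjusted p = 0.227 by limma). The groups of both genes did not overlap.

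The MYC network list had a median of -0.21 over 15 genes (-0.12 after quantile normalization and -0.13 with median log ratio scaling). It was -0.096 in mouse 4050 and -0.32 in mouse 4182, against 0.0037 and -0.16 over all tested genes. In both mice 10 of the list were lower, against 38.8% of all genes, and 2 higher. With an unadjusted p below 0.05 there were 3, all lower, against 6.33% of all genes lower. Mxd4, which competes with MYC for its partner MAX, was called with the block only, at -0.84 (the limma adjusted p was 0.0237 blocked and 0.103 unblocked). It had 19.7 and 18.5 FPKM in controls and 11.6 and 8.98 FPKM with R848. The 18 genes of 5S RNP and p53 surveillance had medians of opposite sign, 0.20 in mouse 4050 and -0.17 in mouse 4182, with 1 higher at an unadjusted p under 0.05. The 28 genes of ribosome-associated quality control had 0.037 in mouse 4050 and -0.24 in mouse 4182, with 1 at that level in each direction.

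Markers of other cell types moved with R848, and their part in the ribosomal protein values was not tested. Of all 12612 tested genes, limma called 185 higher and 48 lower (429 and 240 with the block). Limma called 5 of 12 macrophage markers higher and 1 lower (7 and 2 with the block). Marco, C1qc, Fcgr1 and Emr1 had the smallest p, all higher, and Mrc1 was the lower one. The summed level of the list was 602 to 617 FPKM in controls and 1014 to 1024 FPKM with R848. Plasma cell markers had 5 of 10 higher (also 5 with the block), led by Igkc, Iglc2, Igj and Ighm, with sums of 566 to 716 FPKM in controls and 1534 to 1859 FPKM with R848. For B cells 3 of 5 were higher (among them Ms4a1 and Cd79a; 4 with the block), with sums of 16.4 to 19.5 and 44.8 to 47.0 FPKM. For T cells 3 of 9 were higher (Trbc1, Cd3g and Trac; 4 with the block), with sums of 51.5 to 86.9 and 106 to 124 FPKM; Cd3g and Trbc1 were at 0 in the control of mouse 4050 and Trac in that of mouse 4182. Of 6 megakaryocyte and platelet markers 1, Pf4, was higher (2 with the block), with sums of 90.1 to 105 and 217 to 455 FPKM. Without the block 0 were called among myeloid and leukaemic, neutrophil, mast cell, dendritic, NK, erythroid and stromal markers. With the block 1 myeloid and 1 dendritic marker were called in each direction, and 1 neutrophil and 2 mast cell markers higher.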

How the data were processed

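The authors deposited 1 table of log2 values, named log2 FPKM per the file headers, for 28192 rows and 4 samples. The submitters' processing notes name kallisto and mm10; their versions, the transcript annotation and how transcripts were joined into genes are not given in the sources used here. Per the labels' protocols, RNA of integrity above 8.0 was read as 150-nucleotide pairs; ribosomal RNA depletion and a stranded mRNA kit are both named. Undoing log2(value + 1) gave sums of 950530 to 962001 per sample, as TPM would. No counts were held, so no count model or counting interval was used.

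Removing 27 names turned into dates and 91 repeats (the highest row was kept) left 28074 symbols. The 12612 averaging 1 FPKM or more were fitted with limma 3.58.1 in R 4.3.3 (trend on; pseudocount 1, as deposited; two-sided; Benjamini-Hochberg over all tested genes, threshold 0.05). The script was tested on simulated data of 12612 genes, with 50 changed at each size. It recovered 2% of those with a log2 change of 0.3, 62% at 1 and 100% at 2 and 3. There were 23 false calls. Fold changes understate changes of low genes.

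The samples of a number come from 1 animal, per the labels, and their deviations from the group means correlated at 0.289 over 12612 genes, so the numbers pair samples; a fit blocked by mouse is an alternative. Alternatives changed the block, pseudocount, filter, scaling, variance prior, repeated symbols, member choice, near-identical copies and samples left out one at a time. Copy sums, abundant rows left out, the mouse term and the scalings combined with the block were added after seeing the data.

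The members and lists were chosen with earlier results of these data known. Named members were, per subunit, the 4 highest and 3 lowest by mean and the 4 lowest and 4 highest by difference, those at an unadjusted p under 0.05 or not lower in both mice, and genes of known role. Rps7 and the copies were chosen after their values were seen. Elsewhere up to 4 called genes by smallest p, or else up to 2 with the smallest p, were named, besides Mpo, Lyz2, Ptprc and Flt3 as defining markers. Some members and list genes are counted but not reported here by name.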

Additional observations from a re-analysis of the deposited data

Results flagged for a closer look

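Rpl27, a large-subunit gene, was singled out because its log2 difference between R848 and control was -0.082 in mouse 4050 and 0.47 in mouse 4182, opposite ways in the mice. With 1 sample per treatment in each mouse, the difference between the mice was not tested. Its control in mouse 4182 had 66.7 FPKM, and the other 3 samples had 92.2 to 97.6 FPKM. The copy Rpl27-ps3, identical over all its 411 bases, had 1504 and 1495 FPKM in controls and 1419 and 1066 FPKM with R848. Another copy, Gm6341, had 233 and 518 FPKM in controls and 243 and 779 FPKM with R848. With copies summed Rpl27 was at -0.089. How reads were divided between these rows was not tested.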

How the results depend on the processing

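The 12612-gene fit called 185 genes higher and 48 lower. These were 429 and 240 with the replicate block, 1 and 22 with no filter, 76 and 12 after quantile normalization, 91 and 15 with median log ratio scaling, and 87 and 17 without abundant and immunoglobulin rows. With the replicate block they were 434 and 248 for summed copies, 404 and 145 for median log ratio scaling, and 354 and 136 for quantile normalization. A robust prior gave 99 lower. Leaving out 1 sample gave 46 to 259 higher and 10 to 136 lower. Members called lower were 0 except without the control of mouse 4050 (1, Rps16). The member median of -0.23 was -0.077 after quantile normalization, with or without the replicate block, and -0.34 to -0.15 when 1 sample was left out. The small minus large difference of -0.013 was -0.0060 after quantile normalization, 0.0035 with copies summed (each also with the replicate block), -0.053 for means in place of medians, and -0.053 to 0.0061 when 1 sample was left out. The ratio of shares was 0.782 to 0.909 when 1 sample was left out. Pairing by mouse changed no other call among members.

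Single members turned sign after quantile normalization, with or without the replicate block: Rpl19 (0.086), Rplp0 (0.089), Rps2 (0.0077), Rps20 (0.049), Rps27a (0.0027) and Rps9 (0.067). Rpl22l1 turned with median log ratio scaling (0.015, also with the block), and Rpl27 (-0.089) and Rpl5 (0.085) with copies summed. With 1 sample left out, values ran from -0.13 to 0.0077 for Rpl22l1, -0.078 to 0.46 for Rpl27, -0.058 to 0.33 for Rpl7l1, -0.50 to 0.053 for Rps13, -0.35 to 0.0034 for Rps23 and -0.41 to 0.064 for Rps29. The sign turned without the control of mouse 4182 for Rpl27, Rpl7l1, Rps23 and Rps29, without that of mouse 4050 for Rpl22l1, and without the R848 sample of mouse 4050 for Rps13 and Rps29. The cause was not tested. Depth is unknown, and 2 mice a group limit what differences near 0.2 on the log2 scale can pass.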
